A study of Mus musculus with 5 samples.

Results

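The genes described here were 9 that code for synaptic adhesion proteins: the neurexins *Nrxn2* and *Nrxn3*, the neuroligins *Nlgn1*, *Nlgn2*, and *Nlgn3*, the leucine-rich repeat transmembrane genes *Lrrtm1* and *Lrrtm2*, the synaptic cell adhesion molecule *Cadm1*, and the calsyntenin *Clstn2*. They were taken by gene symbol and not by a threshold on measured values, but the list was made with earlier results of these data known. All 9 were found among the 20224 genes of the count table. RNA-seq was done at E14.5 without maternal diabetes, on 2 libraries of control neurons (replicates 5 and 6) and 3 of *Hif1aCKO* neurons (replicates 3, 4, and 5). Each library was made from 100 cells sorted for eGFP, driven by the peripherin promoter (*Prph-eGFP*), and for tdTomato (*Ai14*), which is expressed only after Cre recombination. All embryos carried *Isl1-Cre* (a knock-in of Cre into *Isl1*, a transcription factor of developing sympathetic neurons among other cells), *Ai14*, and *Prph-eGFP*. *Hif1aCKO* embryos had both *Hif1a* alleles flanked by loxP sites around exon 2, whereas the sorted controls had 1 such allele and 1 wild-type allele, so the control cells could also lose 1 copy of *Hif1a*. The series' design text describes control embryos without Cre as well, but tdTomato-positive cells can be sorted only from embryos that carry it. *Hif1a* codes for the oxygen-regulated subunit of the hypoxia-inducible factor HIF-1, and the comparison of genotypes asked which transcripts differ in sympathetic neurons without it.

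Neurexins are presynaptic membrane proteins that are spliced into many forms and reach across the synaptic cleft. Neuroligins, LRRTM proteins, calsyntenins, and secreted cerebellins and neurexophilins bind to them, and on the postsynaptic side neuroligins recruit scaffold proteins and neurotransmitter receptors. Sympathetic neurons receive cholinergic synapses from preganglionic neurons of the spinal cord and form contacts of their own on target organs such as the heart, so they can use these proteins on both sides of a contact.

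The totals of the 5 libraries ranged from 8254211 to 9700887 counts. Control libraries held 2003 and 1708 counts of *Hif1a*, and *Hif1aCKO* libraries held 2562, 1760, and 2194, each in the order of replicate numbers that is kept throughout (log2 fold change 0.27 ± 0.22, SE, edgeR adjusted p = 0.800). These counts cover the whole gene, with exons outside the deleted one, and therefore do not check the deletion. All 13 sympathetic marker genes were detected in every library. Their counts scaled to the library total (CPM) summed to 9065 and 11192 in the controls and to between 7982 and 8432 in *Hif1aCKO*, without overlap. Of the 13, 6 (46.2%) had an unadjusted p under 0.05 in edgeR, 5 lower and 1 higher in *Hif1aCKO*, beside 7.67% of all genes tested. The genotypes did not overlap in 7 (53.8%), beside 25.7% of all genes tested. *Hif1aCKO* replicate 3 stood apart by glial genes. *Fabp7*, a lipid-binding protein of glial precursors, had 926 counts there, 9 in *Hif1aCKO* replicate 5, and 0 in the other 3 libraries, and *Cdh19*, a cadherin of Schwann cell precursors, had 51 counts there and 0 elsewhere. The 5 detected genes of the 8 glial markers summed to 137 CPM in this library and to between 3.49 and 6.30 CPM in the others, and *Foxd3* and *S100b* were not listed. The fold change of each of the 8 tested members is therefore given with and without this library. Markers of mesenchyme, endothelium, and erythroid cells summed to at most 4.34 CPM in any library. The motor neuron markers *Chat*, *Slc5a7*, and *Slc18a3*, which are also used by cholinergic sympathetic neurons, summed to 78.2 and 108 CPM in the controls and to between 34.0 and 61.3 CPM in *Hif1aCKO*, while *Mnx1* and *Lhx3* were not listed. All 16 genes of a G2/M phase list had higher values in *Hif1aCKO*, beside 51.3% of all genes tested. Of the 16, 12 (75%) had an unadjusted p under 0.05 in edgeR, beside 7.67% of all genes tested. The study had reported *Cdc20*, *Ccnb1*, *Kif23*, *Cenpe*, *Cenpf*, and *Mki67* of this list as upregulated in these same libraries. The shares of this list are therefore not an independent result. The 16 genes summed to between 3195 and 3792 CPM in the controls and to between 4783 and 6197 CPM in *Hif1aCKO*. The part of these differences in the values below was not tested. Bulk libraries cannot tell fewer cells that express a gene from less RNA per cell.

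The 9 genes were expressed at very different levels. On a scale of CPM per kilobase of merged exon, *Cadm1* stood first with 114 ± 14.4 (SD over the 5 libraries, range 97.2 to 136), above 96.8% of the genes tested. *Cadm1*, also called SynCAM1, is an immunoglobulin-type adhesion molecule that binds to its own kind and to relatives across the cleft. *Nlgn2* followed with 4.95 ± 0.43 CPM per kilobase and *Nlgn3* with 2.78 ± 0.41, a level of *Cadm1* 23.0 times that of *Nlgn2* (48.5 times per kilobase of the longest transcript). The order *Cadm1*, *Nlgn2*, *Nlgn3* held in 5 of 5 libraries, and the ranges of these 3 genes did not overlap. This separation of *Nlgn2* from *Nlgn3* depended on the length used. All reads of *Nlgn3* divided by the exonic bases that it does not share with *Gm21986* gave 4.74 CPM per kilobase. This level assumes that no counted read fell in the shared bases, which was not tested. On this length, *Nlgn3* stood below *Nlgn2* in 3 of 5 libraries and overlapped with it in range. Below them, *Lrrtm1* had 2.63 ± 1.13, *Lrrtm2* 2.49 ± 1.24, *Nrxn2* 1.21 ± 0.37, and *Clstn2* 1.08 ± 0.45 CPM per kilobase. Each of these 4 genes overlapped in range with its neighbours in the order, *Nlgn3* included, so they were not separated beyond their spread. *Nlgn1* had 0.28 ± 0.20 CPM per kilobase and overlapped with *Clstn2*. *Nrxn3* was last with 0.057 ± 0.091 and stood below *Nlgn1* in 5 of 5 libraries, although the ranges over all libraries overlapped.

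**Figure D1:**
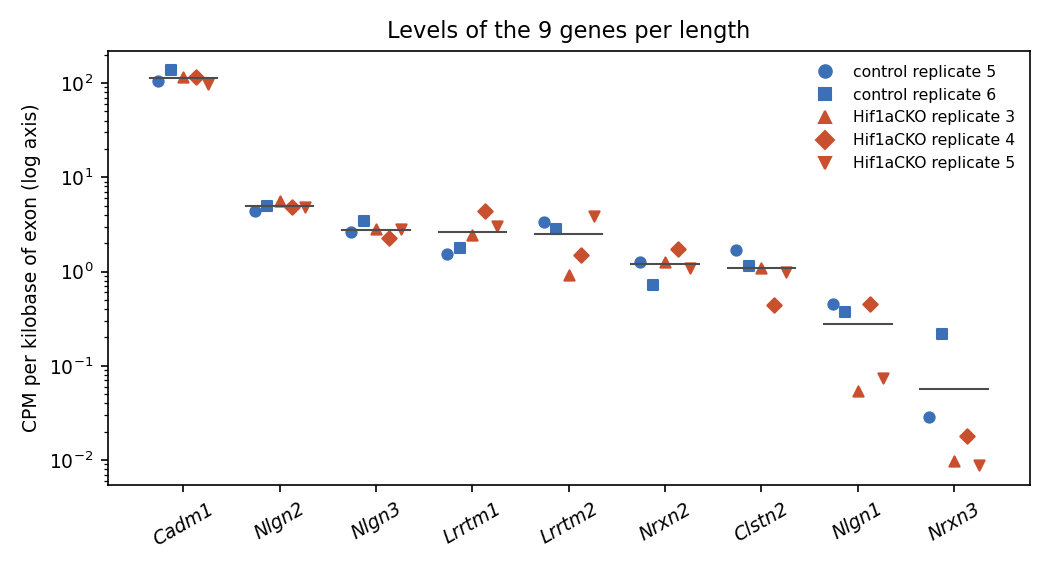
Levels of the 9 genes in CPM per kilobase of merged exon on a log axis, ordered by their mean over the 5 libraries (horizontal lines); each symbol is 1 library, blue for control and red for *Hif1aCKO*. *Cadm1* lies near 114, *Nlgn2* and *Nlgn3* form tight groups of points, *Nlgn1* spreads from 0.055 to 0.45, and *Nrxn3* from 0.0088 to 0.22.

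Within the neuroligins, *Nlgn2* took the largest share of the summed level per length in each of the 5 libraries, from 57.1% to 66.3%. With unshared exon bases as length its share was 44.7% to 53.8%, and *Nlgn3* had the larger share in both controls. *Nlgn2* is known mainly from inhibitory synapses in the brain. *Nlgn3*, which occurs at excitatory and inhibitory synapses, took 29.8% to 38.7%, or 41.7% to 51.6% with unshared bases. *Nlgn1*, known mainly from excitatory synapses, took 0.647% to 6.03%, with its lowest share in *Hif1aCKO* replicate 3. *Cadm1* alone made up 85.3% to 89.8% of the summed level of all 9 genes.

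None of the 9 genes was called different between genotypes. Of the 8 genes with enough counts to be tested, 3 had higher and 5 had lower values in *Hif1aCKO*, and 0 were called in edgeR's quasi-likelihood test. A call needed an adjusted p under 0.05, a log2 fold change beyond 0.3, and 50 or more normalized counts on average. *Nlgn1*, with 33.0 on average, lay below this minimum and could not be called. Without the minimum, 0 of the 8 were called as well. The same rule called 0 of all 15032 genes tested (0%), so that the count for the 8 genes equals the background. With no adjustment, 0 of the 8 had a p under 0.05, beside 7.67% of all genes tested (3.83% with higher and 3.85% with lower values in *Hif1aCKO*). The share with higher values was 51.3% and that with lower values 48.7% over all genes tested. The study had used these thresholds with DESeq2 and reported genes that passed in both directions. Run here with the same thresholds, DESeq2 called 0 of the 8 and 60 of the 15478 genes to which it gave an adjusted p (0.388%). The median log2 fold change of the 8 genes was -0.17 (-0.19 without *Hif1aCKO* replicate 3), beside 0.012 over all genes tested. In 2 of the 8 genes, *Lrrtm1* and *Clstn2*, the values of the genotypes did not overlap, 1 gene in each direction, which is 25% of them beside 25.7% of all genes tested (12.9% in each direction). For a single gene, the smallest two-sided p that exact permutation of these 5 libraries can reach is 0.1.

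**Figure D2:**
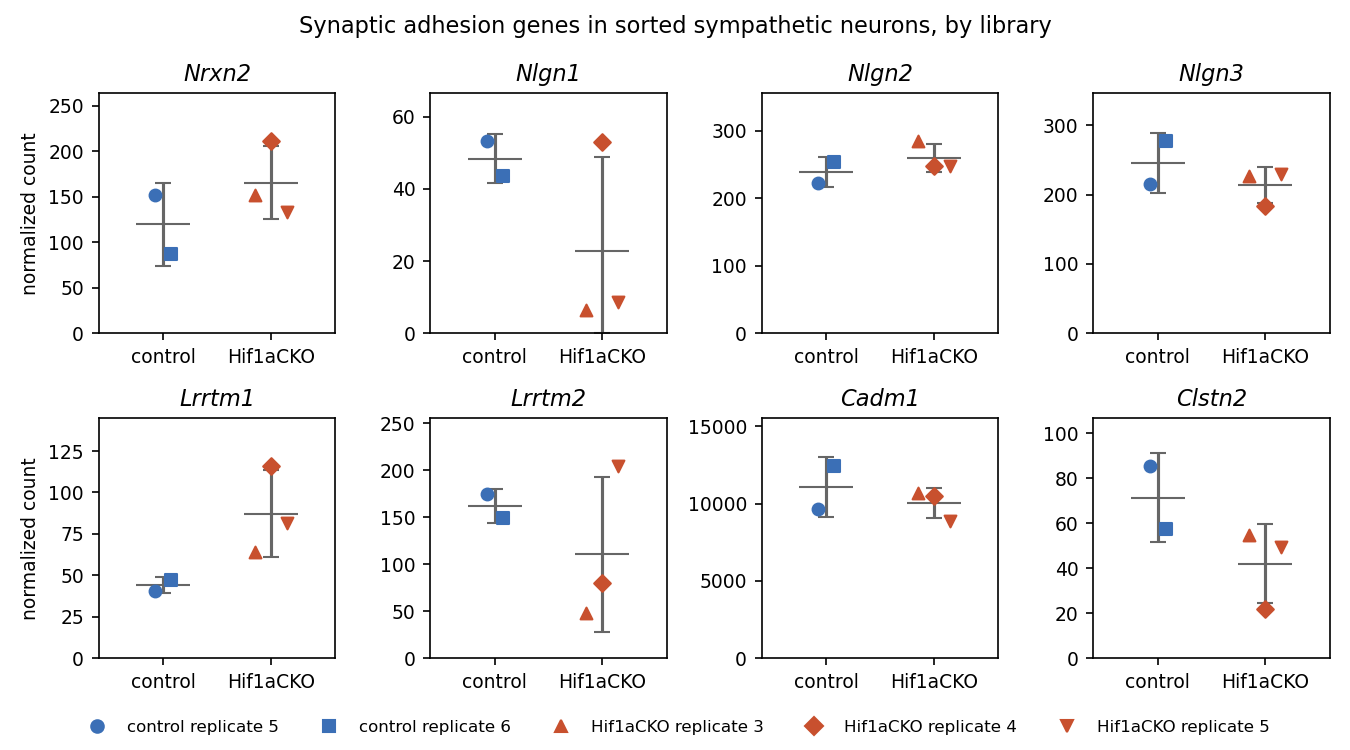
Normalized counts (reads per gene scaled to a common library size) of the 8 tested genes in each library, with the group mean and SD as bars (n = 2 control and 3 *Hif1aCKO* libraries; a bar is cut where it would pass below 0, and each panel has its own vertical axis from 0). The genotypes do not overlap in *Lrrtm1* and *Clstn2*; in *Nlgn1*, *Hif1aCKO* replicate 4 lies at 52.9 with the controls while replicates 3 and 5 lie at 6.43 and 8.76.

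On the presynaptic side, *Nrxn2* (ENSMUSG00000033768, GRCm38 chr19:6418731-6544169, plus strand) had normalized counts of 152 and 87.2 in the controls and 152, 211, and 133 in *Hif1aCKO*. A normalized count is the number of reads on a gene after scaling each library to a common size. Control replicate 6 was the lowest library, *Hif1aCKO* replicate 4 the highest, and the other 3 lay close together across both genotypes. The log2 fold change was 0.47 ± 0.38 (SE, 95% confidence interval -0.40 to 1.33, edgeR adjusted p = 0.800) and 0.53 without *Hif1aCKO* replicate 3. Leaving out 1 library at a time gave values from 0.12 to 0.92. *Nrxn3* (ENSMUSG00000066392, chr12:88722876-90334935, plus strand) had only 3 and 26 counts in the controls and 1, 2, and 1 in *Hif1aCKO*. Control replicate 6 held nearly all of its reads, and the gene did not pass the filter on low counts with all 5 libraries. With no filter its log2 fold change was -3.23 ± 1.37 (SE, unadjusted p = 0.0435, edgeR adjusted p = 0.723), and DESeq2 gave -3.34 with an unadjusted p of 0.0707 and no adjusted p. Reads that map to several places were not counted by the authors, which touches stretches that related genes share.

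Among the postsynaptic partners, *Nlgn1* (ENSMUSG00000063887, chr3:25426215-26332460, minus strand) had the largest standard error of the 8 tested genes. Its normalized counts were 53.1 and 43.6 in the controls and 6.43, 52.9, and 8.76 in *Hif1aCKO*. *Hif1aCKO* replicates 3 and 5 were low, whereas replicate 4 lay between the controls. *Nlgn1* thus had a log2 fold change of -1.08 ± 0.94 (SE, 95% confidence interval -3.25 to 1.08, edgeR adjusted p = 0.822). The value depended on single libraries: it was -0.65 without *Hif1aCKO* replicate 3 and -2.65 without *Hif1aCKO* replicate 4.

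*Nlgn2* (ENSMUSG00000051790, chr11:69823122-69837784, minus strand) differed little between libraries. Its normalized counts were 223 and 254 in the controls and 284, 248, and 247 in *Hif1aCKO*, with overlapping genotypes. The log2 fold change was 0.12 ± 0.24 (SE, edgeR adjusted p = 0.946), and its 95% confidence interval of -0.43 to 0.68 covers a level in *Hif1aCKO* from 0.740 to 1.6 times that of the controls. Without *Hif1aCKO* replicate 3 it was 0.052. *Nlgn3* (ENSMUSG00000031302, chrX:101299168-101325963, plus strand) had 215 and 276 in the controls and 227, 184, and 230 in *Hif1aCKO*. Its log2 fold change was -0.20 ± 0.27 (SE, 95% confidence interval -0.81 to 0.41, edgeR adjusted p = 0.899) and -0.25 without *Hif1aCKO* replicate 3. Of its exonic bases, 41.2% are also annotated to *Gm21986* on the same strand, which is not a row of the count table.

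The LRRTM genes code for postsynaptic neurexin partners with leucine-rich repeats, and *Lrrtm1* and *Lrrtm2* each lie inside an alpha-catenin gene on the opposite strand. *Lrrtm1* (ENSMUSG00000060780, chr6:77242689-77257791, plus strand) had the smallest p of the 8 genes. Its normalized counts were 40.6 and 47.3 in the controls and 64.3, 116, and 81.7 in *Hif1aCKO*. All 3 *Hif1aCKO* libraries lay above both controls, with means of 87.3 ± 26.2 (SD, n = 3) and 44.0 ± 4.72 (SD, n = 2). This gave a log2 fold change of 0.99 ± 0.47 (SE, 95% confidence interval -0.089 to 2.06), a ratio of 1.98, with an unadjusted p of 0.0672 and an edgeR adjusted p of 0.684, at rank 1473 of the 15032 genes ordered by p. Without *Hif1aCKO* replicate 3 it was 1.16 (unadjusted p = 0.0508, edgeR adjusted p = 0.415). *Lrrtm1* lies within *Ctnna2* and shares 0 exonic bases with it, and *Ctnna2* itself had lower values in *Hif1aCKO*, as given with the wider list. In the exons of *Lrrtm1*, reads from unspliced *Ctnna2* RNA cannot be told apart, because counting at default settings does not use strand.

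*Lrrtm2* (ENSMUSG00000071862, chr18:35209003-35215024, minus strand) had normalized counts of 175 and 149 in the controls and 48.3, 79.9, and 204 in *Hif1aCKO*. *Hif1aCKO* replicates 3 and 4 lay below both controls and replicate 5 above both. The log2 fold change was -0.55 ± 0.56 (SE, 95% confidence interval -1.83 to 0.74, edgeR adjusted p = 0.857). It was -0.19 without *Hif1aCKO* replicate 3 and -1.34 without *Hif1aCKO* replicate 5. *Lrrtm2* shares 95 of its exonic bases (1.58%) with *Ctnna1*. In its other exonic bases, reads from unspliced *Ctnna1* RNA cannot be told apart from reads of *Lrrtm2*.

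*Cadm1* (ENSMUSG00000032076, chr9:47530173-47857637, plus strand) had the smallest standard error of the 8 tested genes. Its normalized counts were 9685 and 12425 in the controls and 10669, 10483, and 8900 in *Hif1aCKO*, with overlapping genotypes. *Cadm1* had a log2 fold change of -0.14 ± 0.14 (SE, edgeR adjusted p = 0.848) and -0.19 without *Hif1aCKO* replicate 3. The 95% confidence interval of -0.46 to 0.17 covers a level in *Hif1aCKO* from 0.728 to 1.13 times that of the controls. Without control replicate 6, the highest library, the value was 0.043.

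*Clstn2* (ENSMUSG00000032452, chr9:97444395-98033181, minus strand), a postsynaptic membrane protein with cadherin repeats, had normalized counts of 85.4 and 57.5 in the controls and 54.7, 22.0, and 49.6 in *Hif1aCKO*. All 3 *Hif1aCKO* libraries lay below both controls, although *Hif1aCKO* replicate 3 came close to control replicate 6. The means were 71.5 ± 19.7 (SD, n = 2) and 42.1 ± 17.6 (SD, n = 3), and the log2 fold change was -0.76 ± 0.56 (SE, 95% confidence interval -2.06 to 0.53, edgeR adjusted p = 0.776). It was -0.995 without *Hif1aCKO* replicate 3 and -1.02 without control replicate 6, but -0.45 without control replicate 5 and also -0.45 without *Hif1aCKO* replicate 4.

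**Figure D3:**
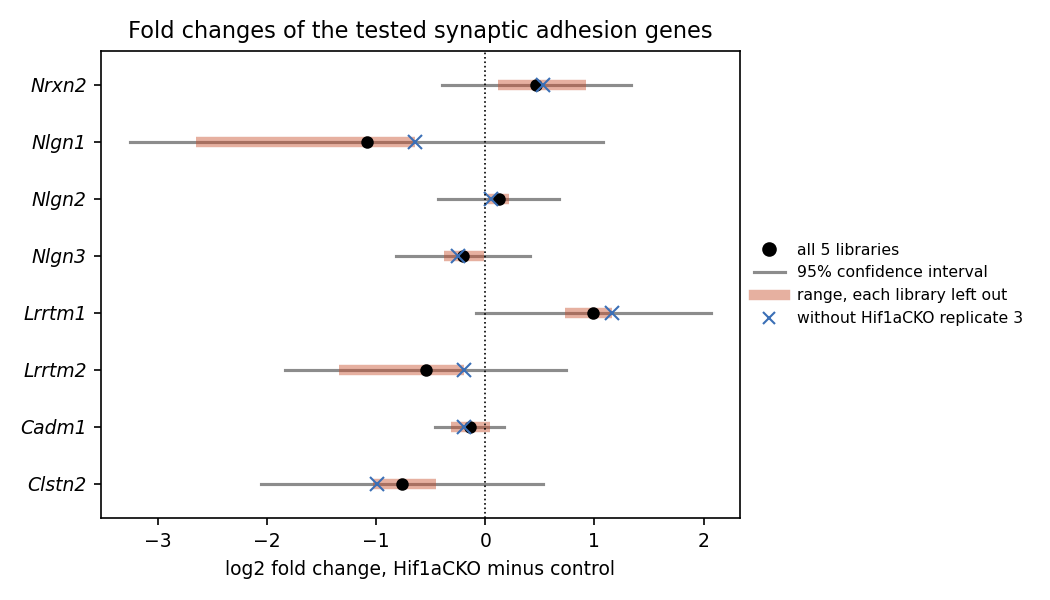
Log2 fold change, *Hif1aCKO* minus control, of the 8 tested genes (points) with 95% confidence intervals (grey lines), the range over fits that each lack 1 library (red bars), and the value without *Hif1aCKO* replicate 3 (crosses). All 8 confidence intervals include 0; that of *Lrrtm1* runs from -0.089 to 2.06 and that of *Cadm1*, the narrowest, from -0.46 to 0.17.

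The promoter windows of *Lrrtm1* and *Clstn2* are shown because these were the genes whose genotypes did not overlap. They are the 250 bases before the start of the gene in RefSeq on GRCm38.p6, at chr6:77242227-77242476 on the plus strand and chr9:98033168-98033417 on the minus strand, printed 5′ to 3′. Capitals mark a match to the core of the HIF-1 binding motif, searched as ACGTG and GCGTG on both strands, so that CACGT and CACGC are matches on the other strand.
Lrrtm1: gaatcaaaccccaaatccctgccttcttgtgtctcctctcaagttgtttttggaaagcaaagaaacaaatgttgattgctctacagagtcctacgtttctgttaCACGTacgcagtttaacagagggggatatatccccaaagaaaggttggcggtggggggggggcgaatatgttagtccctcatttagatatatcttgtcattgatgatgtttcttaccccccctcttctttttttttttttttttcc
Clstn2: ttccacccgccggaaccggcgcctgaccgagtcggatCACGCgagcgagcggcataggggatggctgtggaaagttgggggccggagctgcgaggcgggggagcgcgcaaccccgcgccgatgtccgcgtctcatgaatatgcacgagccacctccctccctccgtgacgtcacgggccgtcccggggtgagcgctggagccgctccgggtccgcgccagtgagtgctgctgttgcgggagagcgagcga
The match began 146 bases before the start in *Lrrtm1* and 213 bases before it in *Clstn2*. RefSeq windows were found for 5 of the 9 genes, and 2 of their 8 windows (25%) held a match, beside 12679 of 32851 windows of all genes (38.6%). The 1 window of *Nlgn2*, 2 of *Nlgn1*, and 3 of *Nrxn3* held none. A match to these letters is a description of the window and not a binding site.

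Both sexes were present in each genotype, read from the counts of *Xist* and the Y-linked *Ddx3y*. Control replicate 5 and *Hif1aCKO* replicate 3 were female and the other 3 libraries male, so the only female *Hif1aCKO* library was also the one with glial counts. The log2 ratio of *Hif1aCKO* to control within females and within males was 0.66 and 1.06 for *Lrrtm1* and -0.64 and -0.68 for *Clstn2*. For *Nlgn1* it was -3.05 and -0.50, and for *Lrrtm2* -1.86 and -0.071. *Nrxn2* had 0.0017 within females and 0.98 within males. Sign differed between the sexes for the remaining genes, with 0.35 and -0.039 for *Nlgn2*, 0.083 and -0.42 for *Nlgn3*, and 0.14 and -0.36 for *Cadm1*. The interaction of genotype with sex had an unadjusted p under 0.05 in edgeR in 0 of the 8 genes and 637 of all 15032 genes tested. The smallest edgeR adjusted p over all genes was 0.995. Each control and the female *Hif1aCKO* library stood alone for its sex, so this test could hardly find a difference between the sexes. With a term for sex, the log2 fold change of *Lrrtm1* was 0.89 (edgeR adjusted p = 0.875) and that of *Clstn2* -0.66 (edgeR adjusted p = 0.914).

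Over the 5 libraries, the genes whose log2 normalized counts were most like those of *Lrrtm1*, of 9959 genes searched, were *Gad2* (Pearson r = 0.997), *Nhsl1* (r = 0.997), and *Actn1* (r = 0.996). *Gad2*, an enzyme that makes the transmitter GABA, had normalized counts of 71.9 and 103 in the controls and 153, 441, and 254 in *Hif1aCKO*, with the same order of libraries. With 5 libraries and a search of this size, such values are a description only.

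A wider list of 87 genes held other neurexin ligands, adhesion families, regulators, scaffold proteins, and the catenin genes that host *Lrrtm1* and *Lrrtm2*. Of these, 84 were in the table and 72 were tested: 34 had higher and 38 lower values in *Hif1aCKO*, with a median log2 fold change of -0.092 (0.019 without *Hif1aCKO* replicate 3). None was called in the quasi-likelihood test (0%), and DESeq2 called 1, *Flrt1*. An unadjusted p under 0.05 was found for 10 of the 72 (13.9%), 3 higher and 7 lower, beside 7.67% of all genes tested. Without *Hif1aCKO* replicate 3 these were 12 of 72, a larger share than the 1773 of 14643 genes tested (12.1%). The genotypes did not overlap in 22 of the 72 (30.6%), beside 25.7% of all genes tested.

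**Figure D4:**
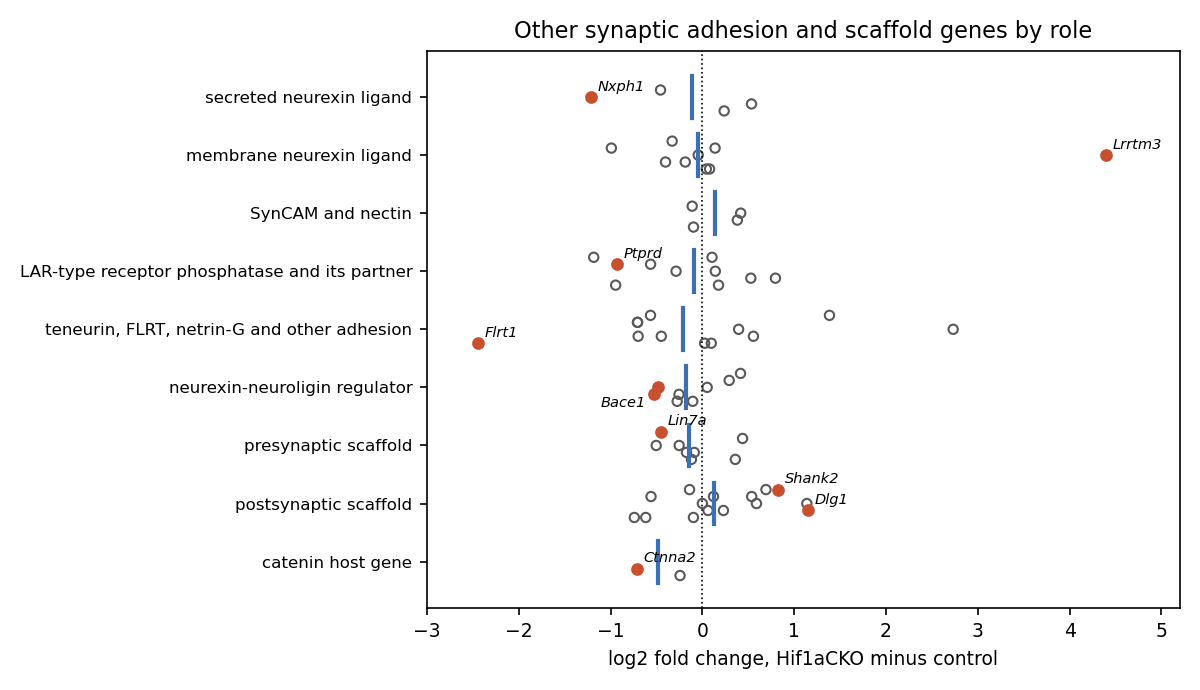
Log2 fold change, *Hif1aCKO* minus control, of the 72 tested genes of the wider list by role; each circle is 1 gene, filled circles have an unadjusted p under 0.05, with the symbols of those described, and blue lines are medians of a role group. None of the 72 passed the adjusted threshold; the value of *Lrrtm3* rests on 3 counts in the controls and depends on the prior count of the fit, and *Flrt1* lies at -2.44.

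Among the secreted neurexin ligands, *Cbln2* (cerebellin 2) was the most abundant, with normalized counts of 1992 and 1143 in the controls and 2569, 2424, and 1820 in *Hif1aCKO* and overlapping genotypes (log2 fold change 0.54 ± 0.26, SE, edgeR adjusted p = 0.685). *Nxph1* (neurexophilin 1) had 94.8 and 122 in the controls and 24.7, 66.9, and 48.7 in *Hif1aCKO*. All 3 *Hif1aCKO* libraries were lower (log2 fold change -1.21 ± 0.51, SE, unadjusted p = 0.0435, edgeR adjusted p = 0.637), and without *Hif1aCKO* replicate 3 the unadjusted p in edgeR was 0.0910. Among the membrane ligands, *Igsf21* was the most abundant, with 340 and 504 in the controls and 301, 228, and 429 in *Hif1aCKO*. *Lrrtm3*, a relative of *Lrrtm1*, had 0 and 3 counts in the controls and 20, 31, and 47 in *Hif1aCKO*. The genotypes did not overlap, and the pooled ratio was 22.5 with a 95% counting interval of 7.47 to 111 that covers counting error only (unadjusted p = 0.00841, edgeR adjusted p = 0.598).

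*Nectin1*, an adhesion molecule related to the SynCAMs, had normalized counts of 183 and 206 in the controls and 266, 291, and 224 in *Hif1aCKO*, which did not overlap (log2 fold change 0.42 ± 0.26, SE, edgeR adjusted p = 0.728). The receptor phosphatase *Ptprd*, which organizes presynaptic sites, had 271 and 331 in the controls and 114, 192, and 168 in *Hif1aCKO*. Its log2 fold change was -0.93 ± 0.30 (SE, unadjusted p = 0.0150, edgeR adjusted p = 0.618), and that of its more abundant relative *Ptprf* was 0.11 ± 0.17 (edgeR adjusted p = 0.925). *Flrt1*, a latrophilin and fibroblast growth factor receptor partner, had 92.7 and 122 in the controls and 25.7, 9.99, and 23.4 in *Hif1aCKO*. Its log2 fold change was -2.44 ± 0.56 (SE, unadjusted p = 0.00230, edgeR adjusted p = 0.586, DESeq2 adjusted p = 0.0473). The study had selected *Flrt1* on these same libraries, and without it the list had 9 of 71 genes with an unadjusted p under 0.05. *Igsf9*, the most abundant gene of that role group, had a log2 fold change of 0.40 ± 0.46 (edgeR adjusted p = 0.884).

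Among the regulators of neurexins and neuroligins, *Bace1*, the protease beta-secretase, had normalized counts of 1209 and 1222 in the controls and 858, 832, and 848 in *Hif1aCKO*, which did not overlap. Its log2 fold change was -0.52 ± 0.15 (SE, unadjusted p = 0.00721, edgeR adjusted p = 0.598) and -0.53 without *Hif1aCKO* replicate 3. Of the 8 regulators 3 had higher and 5 lower values, and without *Hif1aCKO* replicate 3 these were 4 and 4.

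Of the 8 presynaptic scaffold genes 2 had higher and 6 lower values in *Hif1aCKO*, with a median log2 fold change of -0.15. Without *Hif1aCKO* replicate 3, 4 had higher and 4 lower values, with a median of -0.16. Over all genes tested, 48.7% had lower values. *Lin7a* had normalized counts of 792 and 672 in the controls and 566, 558, and 485 in *Hif1aCKO* (log2 fold change -0.45 ± 0.18, SE, unadjusted p = 0.0362, edgeR adjusted p = 0.626). *Lin7c*, the most abundant, had overlapping genotypes (log2 fold change -0.17 ± 0.20, edgeR adjusted p = 0.884). Of the 15 tested postsynaptic scaffold genes 10 had higher and 5 lower values, with a median of 0.12, beside 0.012 over all genes tested. Without *Hif1aCKO* replicate 3, 9 had higher and 6 lower values, with a median of 0.18. *Shank2* had 122 and 122 in the controls and 178, 250, and 220 in *Hif1aCKO* (log2 fold change 0.83 ± 0.29, SE, unadjusted p = 0.0226, edgeR adjusted p = 0.621). *Dlg1*, which codes for SAP97, had 31.2 and 56.6 in the controls and 106, 109, and 78.8 in *Hif1aCKO* (log2 fold change 1.15 ± 0.47, SE, unadjusted p = 0.0379, edgeR adjusted p = 0.627), and without *Hif1aCKO* replicate 3 the unadjusted p in edgeR was 0.0858. *Dlgap4*, the most abundant, had a log2 fold change of 0.12 ± 0.17 (edgeR adjusted p = 0.903).

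The host genes of the LRRTM genes code for alpha-catenins, which link cadherins to actin. *Ctnna2*, the neuronal form and host of *Lrrtm1*, had normalized counts of 684 and 1090 in the controls and 634, 483, and 508 in *Hif1aCKO*. All 3 *Hif1aCKO* libraries were lower (log2 fold change -0.71 ± 0.24, SE, unadjusted p = 0.0163, edgeR adjusted p = 0.621), the opposite sign to *Lrrtm1*. *Ctnna1*, the host of *Lrrtm2*, had overlapping genotypes (log2 fold change -0.24 ± 0.19, edgeR adjusted p = 0.789).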

How the data were processed

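The authors trimmed reads with cutadapt (version 1.18) and Trimmomatic, removed ribosomal and vector reads with bowtie (version 1.2.2) and SortMeRNA, aligned the rest to GRCm38 with STAR (version 2.7.0c), and counted reads per gene with Rsubread at default settings, leaving out multi-mapping reads. These defaults do not use strand and leave out reads that overlap more than 1 gene. The deposited values are raw counts without normalization. Counts on annotated exons carry no unique molecular identifiers, so intervals on counts cover counting error only. Names, positions, and exon lengths of genes are those of GENCODE release M21 for GRCm38, in which 29 of the 20224 identifiers are missing.

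Genotypes were compared in R (version 4.3.3) by the quasi-likelihood test of edgeR (version 4.0.16), using TMM factors (0.974 to 1.03), filterByExpr, genotype as the only term, and Benjamini-Hochberg adjustment over the 15032 genes kept. The biological coefficient of variation was 0.384. The thresholds were those of the study, an adjusted p under 0.05, a log2 fold change beyond 0.3, and 50 or more normalized counts on average. The study used them with DESeq2 and reported protein-coding genes that passed in both directions, whereas the main test here was that of edgeR. Nothing states that libraries came from separate litters, so p-values measure the spread between these libraries, which may be in part technical. No 2 libraries were duplicates (chi-square per degree of freedom at least 14.2). Alternatives used DESeq2 (version 1.42.0), limma-voom (limma version 3.58.1), other normalizations and filters, a sex term, and leaving out each library. The interaction with sex and exon lengths without shared bases were chosen after seeing the data. Promoter sequences came from RefSeq on GRCm38.p6. Plots and summaries used Python (version 3.11.15) with pandas (version 2.3.3) and matplotlib (version 3.10.9).

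The members and lists were chosen with earlier results of these data known. Named genes are all 9 members and, per role group of the wider list, the most abundant tested gene, the gene of smallest p, and each gene with an unadjusted p under 0.05, plus the 3 protein-coding genes most like *Lrrtm1* by Pearson correlation (pseudocount 0.5, mean normalized count of at least 50). The marker lists covered sympathetic neurons, glia, mesenchyme, endothelium, erythroid cells, chromaffin cells (1505 to 2180 CPM summed), sensory neurons (61.4 to 103 CPM summed), motor neurons, and the G2/M phase. The chromaffin sum came mostly from *Cartpt* (mean 1292 CPM) and *Chgb* (475 CPM), with log2 fold changes of 1.04 and -1.69. *Pnmt* and *Penk* had 2.56 and 1.26 CPM. The sensory sum came mostly from *Prrxl1* (75.4 CPM). *Pou4f1*, *Avil*, and *Runx3* had 0.39, 0.82, and 0.25 CPM. Some related genes and genes of these lists are not reported here.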

Additional observations from a re-analysis of the deposited data

How the results depend on the processing

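No member was called under any alternative. Of 103 alternative log2 fold changes of the 8 tested members, 102 kept their sign, and 1 reversed, *Cadm1* at 0.043 without control replicate 6 (range -0.31 to 0.043 over the fits that lack 1 library). The smallest edgeR adjusted p of a member under any alternative was 0.415, for *Lrrtm1* without *Hif1aCKO* replicate 3. Over all genes tested, 0 were called in the quasi-likelihood test, 60 with DESeq2, 40 with the likelihood ratio test of edgeR, and from 0 to 4 in the fits that lack 1 library, with 4 without control replicate 5. In the wider list, DESeq2 and the likelihood ratio test each called 1 gene. Its median log2 fold change was -0.092 with all libraries and ranged from -0.070 to 0.019 in these fits, with 0.019 without *Hif1aCKO* replicate 3. *Nlgn1* could not be tested where at least 10 counts were required in every library, and *Nrxn3* was tested with edgeR only with no filter and without control replicate 5. With 1 control library left, that library was assumed to vary like the others. No paired analysis was possible because the genotypes share only replicate number 5. The order of the 9 genes by mean level was the same per longest transcript and per exon without shared bases, with *Cadm1* at 249.6 and *Nrxn2* at 2.52 CPM per kilobase of longest transcript and *Nlgn3* at 4.74 CPM per kilobase of unshared exon, where its range overlapped with that of *Nlgn2*. Counts were simulated with the means and gene-wise dispersions of these libraries, and genes with a mean normalized count of at least 50 were changed. The quasi-likelihood test called 43 of 200 genes changed 2-fold (21.5%) and 162 of 200 changed 4-fold (81%). Most 2-fold differences in such genes would therefore not be called at this size. These shares are averages over all levels above that minimum. *Nlgn1* lay below it with a mean of 33.0, and *Clstn2* (53.8) and *Lrrtm1* (70.0) lay low in the range, so the shares do not give the power for these genes. The spread between these 100-cell libraries limits what can be seen for genes with few counts such as *Nlgn1*, *Clstn2*, and *Lrrtm1*.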

Other observations

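The low values of *Nlgn1* in *Hif1aCKO* replicates 3 and 5 were shared by other genes, which were chosen after their values were seen. *Lrrtm4*, another LRRTM gene, had normalized counts of 88.5 and 60.3 in the controls and 18.2, 92.9, and 0.973 in *Hif1aCKO* replicates 3, 4, and 5. *Chat*, the enzyme that makes acetylcholine, had 54.2 and 49.2 in the controls and 12.9, 51.9, and 12.6 in *Hif1aCKO*. *Slc5a7*, the choline transporter, had 19.8 and 55.7 in the controls and 0, 43.9, and 0 in *Hif1aCKO*. *Chgb*, a protein of secretory granules, had 5514 and 8695 in the controls and 776, 4732, and 1106 in *Hif1aCKO*. In all 5 genes *Hif1aCKO* replicate 4 lay nearer to the controls than the other *Hif1aCKO* libraries, and none had an edgeR adjusted p below 0.621. Other genes of the same marker lists differed. *Slc18a3*, listed with *Chat* and *Slc5a7*, had 611 and 839 in the controls and 285, 266, and 524 in *Hif1aCKO*. *Pnmt*, listed with *Chgb*, had 29.2 and 51.0 in the controls and 18.2, 3.00, and 10.7 in *Hif1aCKO*. In *Slc18a3* and *Pnmt*, *Hif1aCKO* replicate 4 was the lowest library.

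*Gm14964*, annotated antisense to *Nrxn2* at GRCm38 chr19:6530711-6532011 on the minus strand, had 184 and 102 counts in the controls and 146, 227, and 144 in *Hif1aCKO*, which is 1.03 to 1.26 times the counts of *Nrxn2* in the same library. It shares 207 bases (1.5%) of the exonic bases of *Nrxn2* and has 760 exonic bases, so that its level per length was 24.3 CPM per kilobase beside 1.21 for *Nrxn2*. Counting at default settings does not use strand and leaves out reads that overlap more than 1 gene. Reads in the shared bases therefore count for neither gene. *Gm14964* lies within the span of *Nrxn2*. In its other exonic bases, reads from unspliced *Nrxn2* RNA cannot be told apart from reads of *Gm14964*. The log2 fold change of *Gm14964* was 0.29 ± 0.40 (SE, edgeR adjusted p = 0.903).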
